A study of Homo sapiens with 12 samples.

Results

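The DLX and MSX homeobox genes were followed through RNA-sequencing of NCIH838 cells, a human lung cancer cell line. The 7 genes are DLX1, DLX2, DLX3, DLX4, DLX5, MSX1 and MSX2, and they were found in the count table by matching its Ensembl identifiers to these symbols in the GENCODE v44 annotation. All 7 had a row, among 58302 identifiers in the table. The rule used their names and no measured value, although earlier results of these data were known when they were chosen. 5 of the 7 were expressed at a mean of at least 1 CPM (the usual count scaled to a library's total, here adjusted by TMM, a trimmed mean of M-values) in some condition, namely DLX1, DLX2, DLX4, MSX1 and MSX2. DLX3 reached a mean of only 0.762 CPM in its highest condition, and DLX5 had no count in any library. BMP raised DLX2 and MSX2 most clearly, and raised DLX1 less. DLX4 rose past the test in cells in which MIB1 had been targeted but not in the other cells, a difference that itself did not pass. DLX3 could be tested only because of its level under BMP in the targeted cells, at 15 to 20 counts per library against 0 to 8 elsewhere. MSX1 levels overlapped with and without BMP.

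DLX proteins (distal-less homeobox) and MSX proteins (muscle segment homeobox) are transcription factors that bind DNA through a homeodomain with a preference for TAAT-containing sites. In the embryo they pattern the limb buds, the pharyngeal arches and teeth, the skull, the placenta and the forebrain, where DLX1 and DLX2 direct the development of GABAergic interneurons. Several of them are transcribed downstream of bone morphogenetic proteins (BMPs), whose receptors phosphorylate SMAD1, SMAD5 and SMAD9 so that these enter the nucleus with SMAD4. The human DLX genes lie in pairs that point their 3′ ends at each other, whereas MSX1 and MSX2 lie alone.

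All libraries came from NCIH838 cells carrying MIB1-iKO, a doxycycline (Dox)-inducible Cas9 with a guide RNA to MIB1, a ubiquitin ligase. Cells were kept for 3 days in 50 nM LDN, an inhibitor of BMP type I receptors, with no Dox (WT) or with 0.5 µg/ml Dox (KO). They then received 10 ng/ml BMP4 for 24 h, either together with LDN (BMP-off) or with DMSO, the solvent, in its place (BMP-on). The design thus gave 4 groups, WT BMP-off, WT BMP-on, KO BMP-off and KO BMP-on, with 3 libraries each. Every group was given BMP4, and what is called the BMP response here is the difference between BMP4 with and without the inhibitor. Every KO library and no WT library had received Dox, so that the absence of MIB1 cannot be told apart from what Dox alone or the cutting of DNA may do. The MIB1-iKO cells were grown from single-cell clones, and neither the clone nor the guide used for these libraries was named. No source says that the 3 libraries of a group were separate cultures, so the p-values measure only the spread between these libraries, which may be technical.

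The libraries held 19124010 to 29498000 counts, and 17188 genes passed the filter on low counts. MIB1 RNA itself was at 162 ± 11.3 CPM (SD, n = 3) in WT BMP-on and 32 ± 0.984 CPM in KO BMP-on, a log2 fold change of -2.34 ± 0.073 (SE; edgeR quasi-likelihood adjusted p = 9.7e-12). The epithelial markers EPCAM (100 to 263 counts per library) and CDH1 (129 to 228) were present, KRT8 (119 to 181 CPM over the group means) and KRT18 (152 to 153) were the most abundant of the 5 on the list, and KRT19 was at 0 to 2 counts. With BMP, EPCAM fell by 0.56 in WT and fell by 0.61 in KO cells on the log2 scale (adjusted p = 0.00794 and 0.00152), and KRT8 rose by 0.61 in KO cells (adjusted p = 0.00413). The summed epithelial level was 296 CPM in WT BMP-off, 319 in WT BMP-on, 288 in KO BMP-off and 347 in KO BMP-on. Of 5 lung lineage markers 4 stayed below 10 counts in every library, NKX2-1 at 0 to 1. The summed level of 5 fibroblast markers, nearly all of it COL1A1, was 19.9 CPM in WT BMP-off, 31.3 in WT BMP-on, 15.9 in KO BMP-off and 39.2 in KO BMP-on, with COL1A2 at 0 to 5 and DCN at 0 to 3 counts. The part of these marker changes in the results described next was not tested, and in bulk RNA fewer cells expressing a gene and less RNA per cell cannot be told apart. Summed leukocyte markers stayed between 0.14 and 0.197 CPM with PTPRC at 0, and 3 endothelial markers summed to 0.623 to 1.42 CPM. In several libraries the deviation of a gene from its mean followed GC content, from a Spearman's rho across genes of -0.603 in KO BMP-off replicate 2 to 0.586 in KO BMP-off replicate 3. The transcripts of DLX2, DLX4 and MSX1 are GC-rich (59.9%, 61.5% and 59.8%), and values with a GC correction are given where they change a call and for DLX2.

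The promoters of the expressed genes are shown first, because the members differed in how they responded and DLX1 and DLX2 are neighbours. In GRCh38, DLX1 lies at chr2:172084740-172089677 on the plus strand and DLX2 at chr2:172099438-172102900 on the minus strand, with their 3′ ends 9760 bases apart. DLX4 (chr17:49968588-49974959, plus) and DLX3 (chr17:49990005-49995224, minus) form another such pair, 15045 bases apart. DLX5 (chr7:97020396-97024950, minus) is paired with DLX6, the only family gene outside the 7. MSX1 lies at chr4:4859665-4863936 and MSX2 at chr5:174724582-174730896, both on the plus strand. None of the 7 overlaps another annotated gene.

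RefSeq promoter sequences (GRCh38.p14, 300 bases around the start of transcription) matched 4 of the 7, DLX1, DLX2, MSX1 and MSX2. DLX3, DLX4 and DLX5 were not matched. The RefSeq start of DLX1 lies 767 bases inside the GENCODE span given above, and those of the other 3 fall on the annotated gene start. The 4 windows were searched on both strands for GGCGCC and GGAGCC, to which the BMP SMADs and SMAD4 bind, for CAGAC, which contains the short SMAD element, and for TAATTA, a homeodomain site. No 2 of these motifs contain each other. Among all 35116 promoters of this length in the table, 19.2% held GGCGCC, 36% GGAGCC, 45.3% CAGAC and 4.84% TAATTA. Capitals mark matches, which read GGCTCC or GTCTG where the motif lies on the other strand. The windows are chr2:172085257-172085556 (plus strand) for DLX1, chr2:172102851-172103150 (minus) for DLX2, chr4:4859415-4859714 (plus) for MSX1 and chr5:174724332-174724631 (plus) for MSX2.
DLX1: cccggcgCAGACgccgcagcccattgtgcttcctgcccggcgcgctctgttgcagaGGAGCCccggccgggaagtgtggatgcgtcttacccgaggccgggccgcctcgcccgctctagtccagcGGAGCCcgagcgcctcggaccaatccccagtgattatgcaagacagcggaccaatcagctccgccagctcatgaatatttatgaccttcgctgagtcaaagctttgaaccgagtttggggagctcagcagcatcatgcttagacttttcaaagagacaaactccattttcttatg
DLX2: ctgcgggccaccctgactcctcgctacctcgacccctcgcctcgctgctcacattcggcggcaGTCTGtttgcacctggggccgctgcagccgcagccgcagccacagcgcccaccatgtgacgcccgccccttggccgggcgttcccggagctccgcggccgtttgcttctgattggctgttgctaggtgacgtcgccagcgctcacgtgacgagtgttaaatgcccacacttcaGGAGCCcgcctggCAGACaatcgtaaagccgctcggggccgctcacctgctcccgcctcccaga
MSX1: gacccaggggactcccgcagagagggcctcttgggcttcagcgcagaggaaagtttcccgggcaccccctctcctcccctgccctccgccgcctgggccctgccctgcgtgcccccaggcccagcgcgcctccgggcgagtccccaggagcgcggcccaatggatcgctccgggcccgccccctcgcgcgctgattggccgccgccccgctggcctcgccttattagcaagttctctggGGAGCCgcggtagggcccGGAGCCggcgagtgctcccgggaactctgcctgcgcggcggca
MSX2: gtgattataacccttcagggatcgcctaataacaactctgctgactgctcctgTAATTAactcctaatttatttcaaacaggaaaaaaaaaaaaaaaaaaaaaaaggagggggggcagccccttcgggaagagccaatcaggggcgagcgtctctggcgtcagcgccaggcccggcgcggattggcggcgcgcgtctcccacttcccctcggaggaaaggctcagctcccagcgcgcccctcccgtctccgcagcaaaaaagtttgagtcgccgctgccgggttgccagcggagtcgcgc
GGAGCC occurred at 2 places in the DLX1 window, 1 in that of DLX2 and 2 in that of MSX1. CAGAC occurred at 1 place in DLX1 and 2 in DLX2, where GGAGCC began at -14 and the nearer CAGAC at -1 from the start. The MSX2 window held TAATTA, at -197, and neither SMAD motif. GGCGCC was in none of the 4 windows. These matches are letters in a window and were not compared with binding data.

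DLX2, a forebrain and pharyngeal arch regulator, had the largest BMP response of the members with ample counts. Its counts were 274, 237 and 245 in the WT BMP-off libraries (replicates 1, 2 and 3), 985, 989 and 941 in WT BMP-on, 434, 298 and 339 in KO BMP-off and 1708, 1495 and 1811 in KO BMP-on. Scaled to library size these were 9.84, 10.3 and 11.1 CPM in WT BMP-off, 41.5, 33.8 and 33.8 in WT BMP-on, 15.1, 12 and 14.3 in KO BMP-off and 65.4, 78 and 70.3 in KO BMP-on. The 4 groups did not overlap in any pair, and the KO BMP-on libraries stood above all others. DLX2 rose 3.49-fold with BMP in WT cells (95% interval 2.98 to 4.08; log2 fold change 1.80 ± 0.106, SE, adjusted p = 7.17e-08) and 5.15-fold in KO cells (4.44 to 5.99; 2.37 ± 0.102, adjusted p = 5.6e-10). By size of the fold change this placed DLX2 at rank 6 in each of the 2 responses among the 14288 genes with a mean of at least 1 CPM. With a GC correction the log2 responses of DLX2 were 1.73 in WT and 2.1 in KO cells, and both passed. The corrected KO value lay below the uncorrected 95% interval, which began at 2.149 on the log2 scale. Among BMP-on libraries DLX2 was 1.96-fold higher in KO than in WT cells (log2 fold change 0.97 ± 0.0935, adjusted p = 4.19e-05). Under BMP-off KO cells had 13.8 ± 1.64 CPM and WT cells 10.4 ± 0.657 CPM (SD, n = 3), a log2 difference of 0.41 ± 0.113 with an adjusted p of 0.333, which did not pass.

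**Figure D1:**
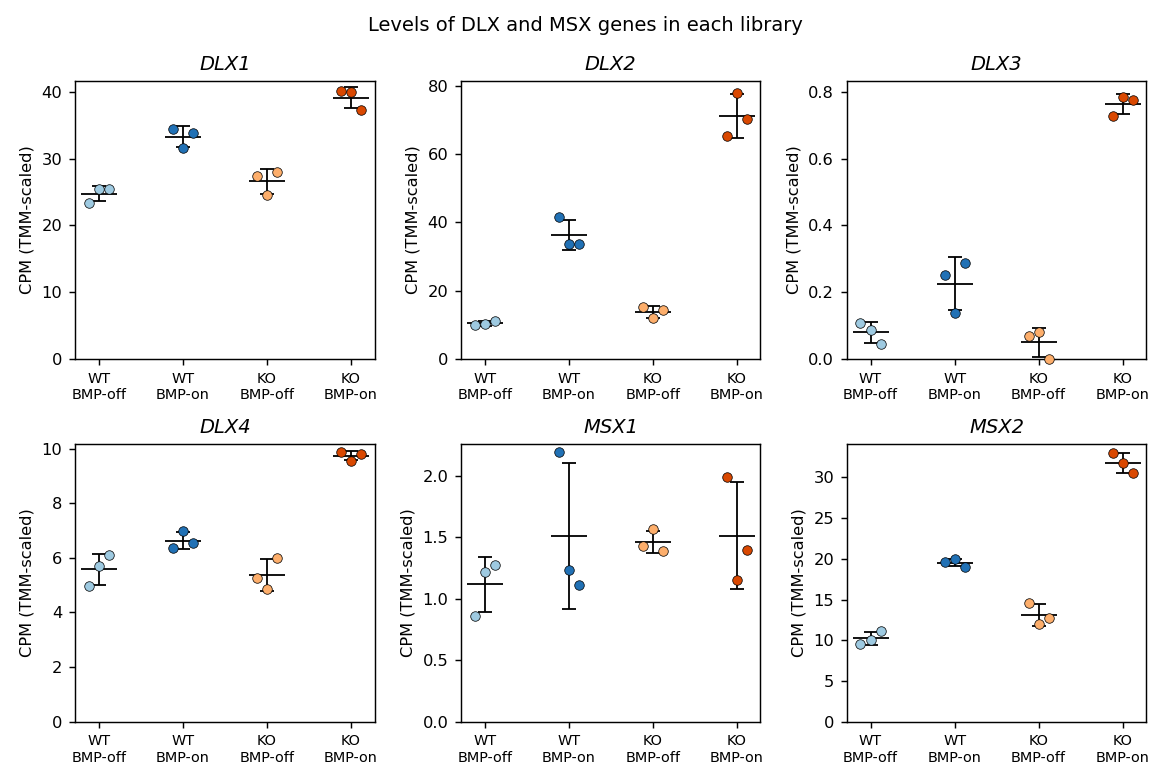
Levels of the 6 detected genes in each library, in TMM-scaled CPM on linear axes that start at 0 and differ between panels; points are libraries, and the horizontal lines and bars are the mean and SD of 3 libraries. KO BMP-on is the highest group for DLX1, DLX2, DLX3, DLX4 and MSX2, whereas the MSX1 groups overlap except WT BMP-off against KO BMP-off.

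DLX1, the partner of DLX2 in forebrain development, had a higher starting level and a smaller response. Its counts were 652, 586 and 559 in WT BMP-off, 817, 923 and 944 in WT BMP-on, 785, 611 and 666 in KO BMP-off and 1048, 767 and 961 in KO BMP-on. The corresponding means were 24.8 ± 1.16, 33.3 ± 1.53, 26.6 ± 1.85 and 39.2 ± 1.61 CPM (SD, n = 3). BMP-on libraries lay above BMP-off libraries in both cell states without overlap, and the BMP-off groups of WT and KO cells overlapped. DLX1 rose 1.35-fold in WT cells (log2 0.43 ± 0.068, SE, adjusted p = 0.00126) and 1.47-fold in KO cells (0.56 ± 0.0673, adjusted p = 2.11e-05). Between KO and WT cells under BMP-on the log2 difference was 0.23 ± 0.0663 with an adjusted p of 0.0677, just outside the threshold although the libraries did not overlap. It passed under 6 of 13 other ways of processing, a GC correction among them, with adjusted p from 0.0114 to 0.12 over the 13. With 1 library left out it passed in 2 of 12 fits, with adjusted p from 0.0241 to 0.283.

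The neighbours DLX1 and DLX2 differed in the size of their responses. Per length, in the deposited RPKM (read counts scaled to gene length and depth), the ratio of DLX2 to DLX1 was 0.374, 0.359 and 0.39 in WT BMP-off, 1.07, 0.952 and 0.886 in WT BMP-on, 0.491, 0.434 and 0.452 in KO BMP-off and 1.45, 1.73 and 1.68 in KO BMP-on. DLX1 was thus the more abundant RNA of the pair in every BMP-off library and DLX2 in every KO BMP-on library, while in WT BMP-on the order differed between libraries. DLX2-DT, a noncoding RNA whose annotated start lies 105 bases from that of DLX2 and which is read in the other direction, rose with BMP as DLX2 did. It had 15, 18 and 8 counts in WT BMP-off, 40, 52 and 41 in WT BMP-on, 25, 17 and 15 in KO BMP-off and 59, 56 and 64 in KO BMP-on. Its BMP response was 2.91-fold in WT cells (log2 1.54 ± 0.244, SE, adjusted p = 0.00126) and 3.43-fold in KO cells (1.78 ± 0.215, adjusted p = 2.11e-05). Unlike DLX2, it did not pass for KO against WT cells under BMP-on (log2 0.62 ± 0.184, edgeR adjusted p = 0.0855), and its BMP-off groups overlapped. Its start lies inside the DLX2 window printed above. Beyond the pair, METAP1D, 2309 bases from DLX1, had log2 fold changes of 0.26 in WT and 0.23 in KO cells (adjusted p = 0.179 and 0.0947), and ITGA6 on the far side fell by 0.18 on the log2 scale in KO cells (adjusted p = 0.016).

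**Figure D2:**
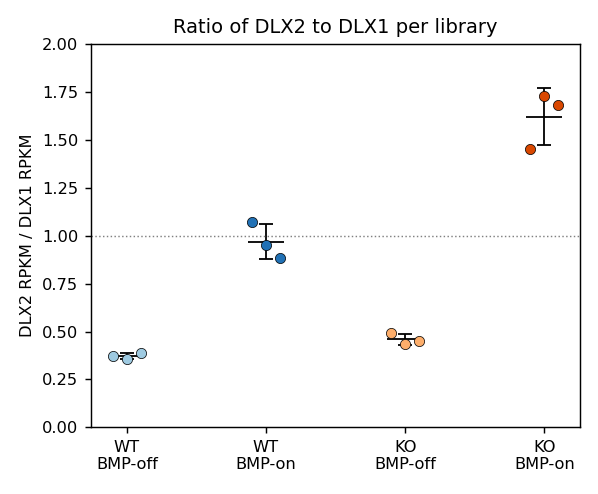
DLX2 RPKM divided by DLX1 RPKM in each library, by group; points are libraries, horizontal lines and bars the mean and SD of 3 libraries, and the dotted line marks equal levels. The ratio averaged 0.374 in WT BMP-off, 0.97 in WT BMP-on, 0.459 in KO BMP-off and 1.62 in KO BMP-on.

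MSX2, which acts in skull and tooth formation and is a classical BMP-responsive gene, followed the pattern of DLX2 with smaller folds. Its counts were 265, 231 and 245 in WT BMP-off, 465, 585 and 531 in WT BMP-on, 420, 300 and 302 in KO BMP-off and 861, 608 and 788 in KO BMP-on. In CPM the libraries ran from 9.52 to 11.1, from 19.1 to 20, from 12 to 14.6 and from 30.6 to 33 in these 4 groups, with no overlap between any pair. MSX2 rose 1.92-fold in WT cells (95% interval 1.69 to 2.17; log2 0.94 ± 0.0856, SE, adjusted p = 5.01e-06), just under 2-fold, and 2.41-fold in KO cells (2.14 to 2.72; 1.27 ± 0.0817, adjusted p = 3.29e-08). KO BMP-on exceeded WT BMP-on by 1.62-fold (log2 0.70 ± 0.0789, adjusted p = 0.000113). Under BMP-off the difference was 0.37 ± 0.0882 on the log2 scale with an adjusted p of 0.272. A processed copy, MSX2P1, had no count in any library.

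MSX1, the close relative of MSX2 that acts in palate and tooth development, was present at a low level and showed no detectable response. It had 24, 28 and 28 counts in WT BMP-off, 52, 36 and 31 in WT BMP-on, 41, 39 and 33 in KO BMP-off and 52, 22 and 36 in KO BMP-on. Replicate 1 was the highest library in both BMP-on groups, at 2.19 CPM without Dox and 1.99 CPM with it, and the remaining BMP-on libraries lay within the range of the BMP-off libraries. The log2 fold change was 0.43 ± 0.276 in WT cells (SE, adjusted p = 0.517) and 0.076 ± 0.262 in KO cells (adjusted p = 0.868). The 95% interval in WT cells, -0.16 to 1.01, includes a 2-fold rise. That in KO cells, -0.48 to 0.63, includes a 1.5-fold rise and a fall to 0.718 of the BMP-off level. Changes within these intervals were not detectable at this depth, and the sign in KO cells depended on the processing.

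DLX4, known from placenta and blood cells, rose in KO cells. Its counts were 138, 131 and 134 in WT BMP-off, 151, 204 and 182 in WT BMP-on, 151, 121 and 143 in KO BMP-off and 258, 183 and 253 in KO BMP-on. In CPM the KO BMP-on libraries, at 9.88, 9.55 and 9.82, stood clear of the others, which ran from 4.86 to 6.97. The response was 1.82-fold in KO cells (log2 0.86 ± 0.105, SE, adjusted p = 2.3e-05). Over 13 other ways of processing this log2 fold change ran from 0.547 to 0.88 and passed in all 13. In WT cells it was 1.19-fold (0.26 ± 0.108, adjusted p = 0.261) and did not pass, although the 3 BMP-on libraries lay above the 3 BMP-off libraries. Under BMP-on DLX4 was 1.47-fold higher in KO than in WT cells (log2 0.56 ± 0.102, adjusted p = 0.00434), whereas under BMP-off the difference was -0.049 ± 0.112 (adjusted p = 0.889).

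DLX3, which drives the terminal differentiation of keratinocytes and the development of placenta and bone, was near the limit of detection outside KO BMP-on. It had 3, 2 and 1 counts in WT BMP-off, 6, 4 and 8 in WT BMP-on, 2, 2 and 0 in KO BMP-off and 19, 15 and 20 in KO BMP-on. The 3 KO BMP-on libraries, at 0.727, 0.783 and 0.776 CPM, were above all 9 others, which ran from 0 to 0.287 CPM. DLX3 passed the filter on low counts through this group alone, so that it could be tested only because it was high there, and its fitted KO response, 13.5-fold (95% interval 6.54 to 28; log2 3.76 ± 0.495, adjusted p = 4.73e-05), is the largest of all 17188 genes on that footing. The ratio of summed counts, 54 against 4, was 14.7 (exact 95% interval 5.42 to 55.9, which covers counting error only). In WT cells 18 against 6 counts gave a ratio of 2.7 (1.03 to 8.32), and the fitted log2 fold change of 1.39 ± 0.584 did not pass (adjusted p = 0.256). Under BMP-on DLX3 was higher in KO than in WT cells by 1.75 ± 0.361 on the log2 scale (adjusted p = 0.00968). The fitted KO response of DLX3 also fell short of 2-fold on the log2(RPKM + 1) scale (0.34), and DESeq2 gave it no adjusted p. The call between KO and WT cells was lost without replicate 2 of WT BMP-on (adjusted p = 0.0767).

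DLX5, a bone and inner ear regulator, had 0 counts among the 302293110 of all 12 libraries, which allows a level of up to 0.00992 CPM. Its neighbour DLX6 had at most 1 count in any library. With or without BMP, DLX5 was therefore not detected and DLX6 did not exceed 1 count per library, in contrast to both other DLX pairs.

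**Figure D3:**
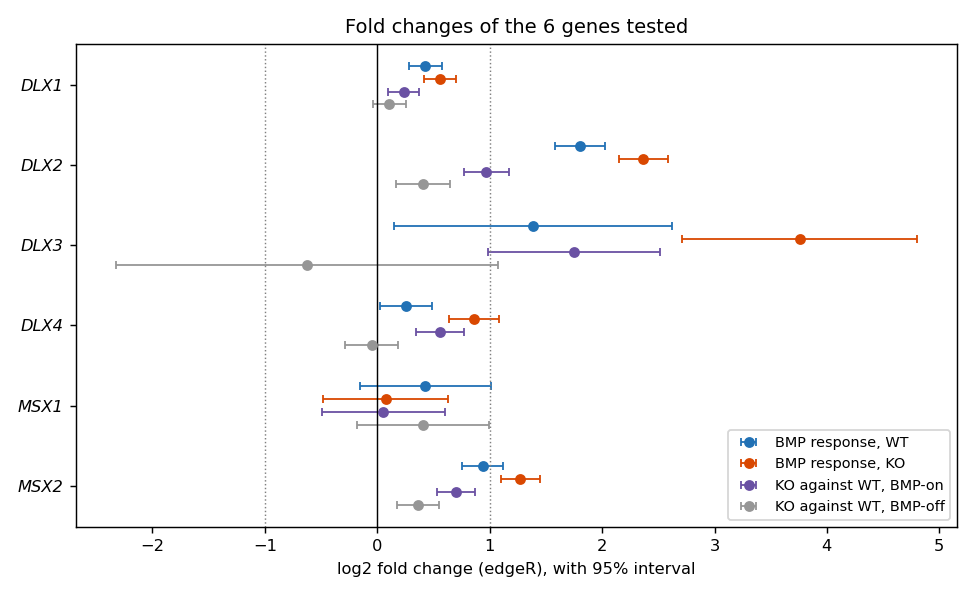
Log2 fold changes (x axis) of the 6 tested genes with their 95% intervals, for the BMP response in WT cells (blue) and KO cells (orange) and for KO against WT cells under BMP-on (purple) and BMP-off (grey); dotted lines mark 2-fold. The KO response lies to the right of the WT response for DLX1, DLX2, DLX3, DLX4 and MSX2, and all 4 intervals of MSX1 include 0.

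Counted over the comparisons, a gene was called when its adjusted p was at most 0.05 and its change at least 2-fold. In the WT BMP response 1 of the 6 tested genes was called higher, DLX2, where 0.349% of all tested genes were called higher. On adjusted p alone 3 of 6 passed (DLX1, DLX2 and MSX2), against 1.91% of all genes. In the KO BMP response 3 were called higher (DLX2, DLX3 and MSX2), against 1.41%, and 5 passed on adjusted p, against 11.1%. For KO against WT cells under BMP-on 1 was called higher (DLX3), against 0.128%, and 4 passed (DLX2, DLX3, DLX4 and MSX2), against 1.32%. Since DLX3 passed the filter only through KO BMP-on, nothing is read from its part in these counts, and under a minimum of 10 counts in every library, which removes it, the calls were 2 in the KO response and 0 for KO against WT under BMP-on. None of the 6 passed for KO against WT cells under BMP-off by edgeR, DESeq2 or limma-voom, where 0.0407% of all genes passed in either direction by edgeR. At an unadjusted p below 0.05, 2 members were below it there (DLX2 and MSX2), among 1757 genes in all, and both passed after adjustment when the filter on low counts was left out. No tested member fell in any comparison that it passed. These counts share libraries, since each BMP-on group enters 2 of the comparisons.

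Whether BMP acted more strongly in KO cells was tested by the interaction, the difference between both log2 responses. It was 0.56 ± 0.147 for DLX2 (SE, adjusted p = 0.158), 0.61 ± 0.151 for DLX4 (0.129), 0.33 ± 0.118 for MSX2 (0.328), 2.37 ± 0.92 for DLX3 (0.37), 0.13 ± 0.0956 for DLX1 (0.624) and -0.35 ± 0.381 for MSX1 (0.737). No member passed by edgeR, where 0.0931% of all genes did. Below an unadjusted p of 0.05 were 4 of the 6 (DLX2, DLX3, DLX4 and MSX2), as were 1819 of all 17188 genes. Nothing is read from DLX3 here, since it passed the filter only through KO BMP-on. DLX2 passed with DESeq2 (adjusted p = 0.0351) and without the filter on low counts (0.000546), and over 12 other ways of processing its adjusted p reached 0.462. With a GC correction the DLX2 interaction was 0.375 in place of 0.56 (edgeR adjusted p = 0.4). DLX3 passed with log2(RPKM + 1) without a filter (0.039). For DLX4 the interaction ran from 0.385 to 0.624 over 12 other ways of processing and passed in none. Its highest adjusted p among these, 0.237, came with the replicate block and GC correction. A larger fold response in KO cells was therefore not established for any single member. In absolute terms BMP added 25.9 CPM of DLX2 RNA without Dox and 57.4 CPM with it. The increments were 9.32 and 18.6 CPM for MSX2, 8.53 and 12.5 CPM for DLX1, and 1.04 and 4.37 CPM for DLX4. DLX3, at few counts, gained 0.146 and 0.712 CPM. For MSX1 the increment was instead smaller with Dox (0.0514 CPM) than without it (0.395 CPM). These increments combine the fold response with the BMP-off level, which for DLX2 and MSX2 was already higher in every KO than in every WT library, although that difference did not pass the test.

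**Figure D4:**
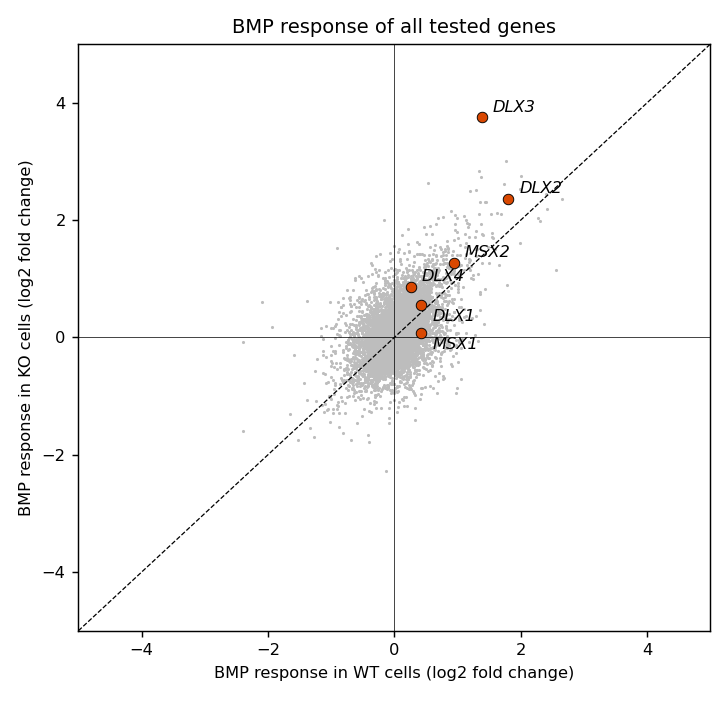
Log2 fold change with BMP in WT cells (x axis) and KO cells (y axis) for all 17188 tested genes (grey), with the 6 DLX and MSX genes in orange and equality dashed. DLX2 and DLX3 stand apart from the cloud of genes and MSX2 at its edge, whereas DLX1, DLX4 and MSX1 lie within it; DLX3 rests on at most 20 counts per library.

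Between genes, the order of levels per length changed with BMP. In mean RPKM, WT BMP-off cells had DLX1 (9.82 ± 0.385, SD, n = 3) above MSX2 (4.72), DLX2 (3.68), DLX4 (2.11), MSX1 (0.603) and DLX3 (0.0309), and no 2 neighbours in this order overlapped. KO BMP-off had the same order, with DLX1 at 10.7 and DLX2 at 4.90. In WT BMP-on DLX1 (13.1) and DLX2 (12.7) overlapped at the top, above MSX2 (8.92). KO BMP-on placed DLX2 first (24.7, range 22.6 to 27.1), followed by DLX1 (15.3) and MSX2 (14.4), which overlapped, then DLX4 (3.62), MSX1 (0.802) and DLX3 (0.289). In KO cells DLX2 thus moved from below DLX1 and MSX2 to above both. In WT cells it moved above MSX2 only, and overlapped with DLX1.

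Across the 12 libraries the levels of the responsive members moved together, as a description that includes the shared group differences. Pearson's r of log2 CPM was 0.983 for DLX1 with DLX2, 0.985 for DLX2 with MSX2 and 0.974 for DLX1 with MSX2, and between 0.206 and 0.392 for MSX1 with each of the others. Among 14287 other genes with a mean of at least 1 CPM, the 3 most like DLX2 were GSE1, HES1, a transcriptional repressor and Notch target, and KANK4 (r = 0.995 each, n = 12). Their log2 BMP responses were 0.47 and 0.68 for GSE1 (WT and KO), 0.87 and 1.18 for HES1 and 1.2 and 1.43 for KANK4. They thus shared the pattern across the libraries and not the size of the response. Those most like MSX2 were FZD7, a Wnt receptor (r = 0.99), HABP4 (0.988) and HEY1, a transcriptional repressor of the Notch pathway (0.987).

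The DLX2 response was as large as those of the best-known BMP targets measured here. Of 12 immediate BMP targets and feedback genes 11 were tested. 9 rose in WT and 10 in KO cells, against 1.91% and 11.1% of all genes. The median log2 fold changes of the 11 were 1.27 and 1.39, where the median over all genes was 0.00164 and 0.00559. BAMBI, a pseudoreceptor that dampens BMP signalling, rose by 1.35 in WT and 2.31 in KO cells on the log2 scale, and NOG (noggin), a secreted BMP antagonist, by 1.45 and 2.31 (KO adjusted p = 2.22e-11 and 3.56e-09). The smallest passing changes in KO cells were those of ID3, an inhibitor of basic helix-loop-helix factors (1.03 ± 0.139, SE), and SMURF2, a ubiquitin ligase (0.30 ± 0.0479). The DLX2 value of 1.80 in WT cells was exceeded in the list by SMAD9 alone (2.41, a gene singled out after its values were seen), and its value of 2.37 in KO cells was close to those of BAMBI and NOG. These differences between genes were not tested. The DLX1 values of 0.43 and 0.56 were below the medians of the list. 7 of the 11 were also higher in KO than in WT cells under BMP-on, against 1.32% of all genes. DLX2 and MSX2 were higher there too.

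Other homeobox genes of the same class mostly did not pass. Over all genes 1.91% rose in the WT response. In the KO response 11.1% rose, 10.9% fell and 22.0% passed in either direction, and the counts of the following lists stand beside these shares. Of 40 NKL-class genes outside the DLX and MSX families 10 were tested and 11 had no count in any library. None of the 10 passed in WT cells by edgeR (1 at an unadjusted p below 0.05), and 3 rose in KO cells, NKX2-4 by 0.67 ± 0.132, VAX1 by 0.62 ± 0.139 and LBX2 by 0.60 ± 0.184 on the log2 scale (SE), none of them 2-fold. The medians of the 10 were 0.062 in WT and 0.42 in KO cells. Among 30 developmental transcription factors known downstream of BMP, 16 were tested, 4 rose in WT cells, and in KO cells 7 rose and 3 fell. HEY1 rose by 2.31 ± 0.0868 and GATA2, a regulator of blood and placental cells, by 1.54 ± 0.108 in KO cells, whereas RUNX2 fell by 0.56 and FOXE1 fell by 0.31 on the log2 scale.

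Genes of the tissues in which DLX and MSX factors act were mostly below the filter on low counts. Of 14 bone-forming genes 5 were tested, and in KO cells COL1A1 rose (log2 1.39 ± 0.198, SE, adjusted p = 0.000602) and RUNX2, the master regulator of osteoblasts, fell (adjusted p = 0.0245). Of 14 keratinocyte differentiation genes 4 were tested, of which GRHL3, an epidermal transcription factor, rose by 1.51 ± 0.318 and TGM1, a transglutaminase of the cornified envelope, fell by 0.56 on the log2 scale in KO cells. No gene of either list passed in WT cells by edgeR (1 and 2 were at an unadjusted p below 0.05). Of 9 GABAergic interneuron genes 2 were tested and 0 passed in either response by edgeR (0 in WT and 1 in KO cells at an unadjusted p below 0.05). Among 10 BMP receptors and signal-transducing SMADs, a list without SMAD9, 8 were tested. SMAD9, counted above with the feedback genes, was higher in KO than in WT cells under BMP-on and BMP-off. The log2 differences were 0.75 ± 0.0676 and 0.97 ± 0.0881 (SE, edgeR adjusted p = 1.3e-05 and 5.65e-05). BMPR2, a type II receptor, rose in WT (0.40, adjusted p = 0.00661) and KO cells (0.49 ± 0.0751, adjusted p = 0.000295) and ACVR1, a type I receptor, in KO cells (0.22 ± 0.0604, adjusted p = 0.0168), while SMAD4 fell by 0.20 and SMAD5 fell by 0.16 on the log2 scale, and none of the 8 passed between KO and WT cells under BMP-on by edgeR (3 at an unadjusted p below 0.05).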

How the data were processed

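RNA from 12 libraries of NCIH838 MIB1-iKO cells was analysed as 4 groups of 3, taken from the sample labels. Per the study's methods, the authors removed ribosomal reads, aligned 50-base single-end reads to GRCh38 with GSNAP (at most 2 mismatches) and counted exon reads per gene with HTSeqGenie. The deposited tables hold raw counts for 58302 Ensembl identifiers and RPKM values, which the authors normalized by length and depth. Both a low-input and a stranded kit were described and the kit used here was not named, so strandedness is not known. No sample column was left out (0).

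Counts were fitted with edgeR 4.0.16 in R 4.3.3 (TMM scaling, filter on low counts, robust quasi-likelihood test, all 12 libraries, 1 term per group), with Benjamini-Hochberg adjustment over 17188 genes. CPM were divided by TMM-scaled totals, and SE and 95% intervals came from the same fit. RPKM were used only between genes and as an alternative, in limma 3.58.1. DESeq2 1.42.0 was another alternative. The fit was tested on simulated data. Depth, 19124010 to 29498000 counts per library, limits the low genes.

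The 7 members and all gene lists were chosen with earlier results of these data known. Genes outside the 7 were named by rule: the 3 genes most correlated with each called member of at least 1 CPM, up to 4 list genes that passed in the KO BMP response (the 2 largest and 2 smallest changes), MIB1, DLX6, and genes that overlap a member. DLX2-DT, MSX2P1, flanking genes and cell type markers were added for their position or as checks, outside that rule.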

Additional observations from a re-analysis of the deposited data

How the results depend on the processing

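Of 147 recomputed fold changes of single members in the WT BMP response, 147 kept their direction and side of the threshold, as did 141 of 148 for the KO response, 133 of 148 for KO against WT under BMP-on, 141 of 147 under BMP-off and 136 of 141 for the interaction, which could not be fitted on only the groups compared. On adjusted p alone, without the fold threshold, the calls were 3 in the WT response, 5 in the KO response and 4 for KO against WT under BMP-on, in place of 1, 3 and 1. The call of DLX3 for KO against WT under BMP-on became 0 calls with DESeq2, with at least 10 counts in every library, and with log2(RPKM + 1), log2(RPKM + 0.1) and log2(RPKM + 1) without a filter. DLX3 is removed by the count minimum and had no adjusted p in DESeq2. With log2(RPKM + 1) its log2 fold change was 0.25, under 2-fold, and with log2(RPKM + 0.1) it was 1.08 at an adjusted p of 0.0726. The KO response had 2 calls in place of 3, without DLX3, with DESeq2, the count minimum and log2(RPKM + 1), filtered or not, where the log2 fold change of DLX3 was 0.34. Leaving out 1 library kept 3 calls in the KO response throughout. For KO against WT under BMP-on it gave 0 to 2 calls. There were 0 without WT BMP-on replicate 2, and 2 without WT BMP-on replicate 1 or KO BMP-on replicate 1, where DLX2 passed 2-fold. DLX2 and MSX2 passed for KO against WT under BMP-off only without the filter on low counts (adjusted p = 0.00203 and 0.0298), and DLX4 passed for the interaction in 2 of 12 fits with a library left out (lowest adjusted p 0.0402) and DLX3 with log2(RPKM + 1) without a filter (0.039).

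The sign of small, uncalled changes varied. MSX1 in the KO response went from 0.076 to -0.0581 (limma-voom), -0.0025 (log2(RPKM + 1), filtered or not), -0.0182 (log2(RPKM + 0.1)), -0.189 (GC correction) and -0.196 (replicate block with GC correction), and over left-out libraries from -0.188 to 0.213. For KO against WT under BMP-on MSX1 gave -0.0148 with the GC correction, -0.0304 with the block added, and -0.206 to 0.389 over left-out libraries. DLX4 under BMP-off went from -0.049 to 0.0906 and 0.0926 with these corrections and to between -0.122 and 0.0186 over left-out libraries. The causes were not tested. With the replicate number as a block the calls stayed at 1, 3 and 1. Whether the numbers pair the libraries was not settled. Of 18 pairs of the same number only 2 had deviations correlated above 0.1 (-0.187 to 0.189). Pairs of different numbers were not compared, so these correlations cannot decide it. Depth limits DLX3, DLX5 and MSX1.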
